A study of Mus musculus with 24 samples.

Results

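Liver RNA of male mice that lack lipin 1 in adipocytes (Adn-Lpin1-/-) was compared with that of WT mice on an LFD. The comparison took the libraries labelled as LFD liver of 1 mouse each, 5 from KO mice and 5 from controls, which make 10 of the 24 libraries of the series. The genotype effect was estimated in a fit of all 20 single-mouse libraries, in which 10 HFD libraries share the estimate of spread, and the 4 libraries of pooled RNA were left out. As WT controls served Cre-negative littermates with both Lpin1 alleles floxed. Adn-Lpin1-/- mice carried floxed Lpin1 and a Cre transgene under the adiponectin (Adipoq) promoter, and both genotypes were on the C57BL/6J background. Mice received the LFD, with 10% of its calories as fat, from 8 weeks of age. The labels give 16 weeks of diet, whereas the methods of the study describe a shorter feeding period for these mice. Livers were taken after a fast of 4 hours.

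Lipin 1 is a phosphatidic acid phosphatase, and adipocytes build their stored fat from the diacylglycerol it makes. The liver takes up fatty acids released by adipose tissue, keeps them as triglyceride in lipid droplets, oxidizes them or secretes them in lipoproteins. Most liver RNA comes from hepatocytes, which divide metabolic tasks between the periportal and the pericentral end of the lobule. Around them lie sinusoidal endothelial cells, Kupffer cells (resident macrophages), cholangiocytes and stellate cells. Stellate cells store vitamin A at rest and, once activated, become myofibroblasts that secrete extracellular matrix.

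Total counts ranged from 36260187 to 45999456 in WT mice and from 51095146 to 61435897 in Adn-Lpin1-/- mice, so the KO libraries were all deeper. After every library was thinned to the smallest total, 1712 genes were called in place of 1877. The tissue label fits the defining markers: albumin (Alb) lay between 55514 and 86432 CPM in all 10 livers, where CPM is the count scaled to the TMM-adjusted library size. Of the adipocyte markers, adiponectin (Adipoq) reached at most 168 counts in a WT liver and 8 counts in a KO liver, and perilipin 1 (Plin1) at most 5 and 0 counts. Of the 14 genes of the adipocyte list 7 could be tested, 6 of them with a log2 difference above 0, and the mean over these 7 ranged from -0.131 to 0.156 in WT mice and from 0.324 to 0.745 in KO mice, relative to the WT mean on the log2 scale. The 7 include the gluconeogenic enzyme Pck1, which is also on the periportal hepatocyte list. It was at 2244 to 5432 CPM in WT mice and at 3603 to 6332 CPM in KO mice. Of the 7, the fatty acid binding protein Fabp4 and complement factor D (Cfd) rose and the beta-3 adrenergic receptor Adrb3 fell. Cfd, with a log2 difference of 3.76 ± 1.18, and Adrb3, with one of -0.83 ± 0.25, overlapped between genotypes, and each lost its call without Adn-Lpin1-/- mouse 2 or 5 or WT mouse 2, 3 or 4, and Cfd also without WT mouse 1 and Adrb3 without Adn-Lpin1-/- mouse 1 or 4. The part of adipocyte RNA in the differences was not tested. The Cre acts in adipocytes, so hepatic Lpin1 does not check the genotype. Its level was 198, 405, 371, 673 and 142 CPM in WT mice 1 to 5 and 1195, 590, 453, 512 and 322 CPM in Adn-Lpin1-/- mice 1 to 5. The groups overlapped, and the log2 difference (Adn-Lpin1-/- minus WT) was 0.78 ± 0.49 (SE), with an adjusted p of 0.314 from edgeR's quasi-likelihood test. Lpin2 and Lpin3, the other members of the family, were not called either (log2 differences of 0.41 and 0.34).

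The genotype comparison called 1877 of 13052 tested genes, 14.4%, at an adjusted p of at most 0.05. Of these, 818 were higher in Adn-Lpin1-/- liver (6.27% of all genes tested) and 1059 were lower (8.11%). The median log2 difference over all genes tested was 0.007. The genotypes did not overlap, with the lowest mouse of one above the highest of the other, for 10.1% of all genes tested (3.89% higher and 6.21% lower), among them 1104 of the called genes. At least a 2-fold difference was estimated for 193 of the genes that were higher and for 82 of those that were lower. The lists of genes described next were chosen with earlier results of these data known, and their counts are given beside these shares. A count of 3 or fewer genes of a list can turn on 1 gene, and such counts lay between 0 and 7 when single mice were left out.

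Among genes whose genotypes did not overlap at a mean of at least 1 CPM, and beyond lipid droplet and collagen genes, the largest fold increase was that of Ppp1r3g (chromosome 13, 35958839 to 35970388, GRCm38), a glycogen-targeting subunit of protein phosphatase 1 that promotes glycogen synthesis after a meal. Ppp1r3g was at 3.17, 2.09, 4.91, 2.48 and 2.84 CPM in the 5 WT mice and at 45.9, 71.7, 18.6, 42 and 36 CPM in the 5 Adn-Lpin1-/- mice. The lowest KO mouse was thus several times above the highest WT mouse, and the log2 difference was 3.80 ± 0.37 (13.9-fold, adjusted p = 2.41e-06). Among the other large increases were Cdkn1a (p21, an inhibitor of cyclin-dependent kinases), Ntrk2 (a neurotrophin receptor), Nr4a1 (an immediate-early nuclear receptor), Hr (a histone demethylase and corepressor) and Lgals1 (galectin 1). They rose by 2.35 ± 0.48, 2.30 ± 0.52, 2.18 ± 0.48, 2.17 ± 0.53 and 2.14 ± 0.44 on the log2 scale. None of the 5 overlapped between genotypes, since the rule that named them required this. Cdkn1a went from 0.774 to 2.63 CPM over the WT mice to 4.67 to 11.9 CPM over the KO mice. Hr was under 1 CPM in every WT mouse, and its groups were apart by less than rounding. WT mouse 5 and Adn-Lpin1-/- mouse 1 were both at 0.814 CPM.

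Among the largest decreases by the same rule was that of Zfp871, a zinc finger protein gene, which was in every KO mouse at a small share of its WT level. Zfp871 was at 25.4, 26.1, 27.5, 21.3 and 22.8 CPM in WT mice and at 3.66, 2.87, 1.87, 3.27 and 1.52 CPM in Adn-Lpin1-/- mice (log2 difference of -3.23 ± 0.21, adjusted p = 5.93e-09). Gprin3 (an effector of G proteins), Lnpep (insulin-regulated aminopeptidase, which travels with GLUT4 in adipocytes and muscle), Lcor (a ligand-dependent corepressor of nuclear receptors) and Lmbrd2 were also among them, with log2 differences of -2.45 ± 0.22, -2.37 ± 0.15, -2.34 ± 0.22 and -1.91 ± 0.21. The 12 largest decreases held besides these the genes F830016B08Rik, Mup-ps20, 4930565N06Rik, Cyp2g1, Neb, Irx1 and Klhl11, with log2 differences from -3.22 for F830016B08Rik to -1.71 for Klhl11. Of these, Irx1 lost its call without Adn-Lpin1-/- mouse 2, Adn-Lpin1-/- mouse 5 or WT mouse 2. Lnpep stayed within 5.16 to 6.67 CPM in WT mice and within 1 to 1.47 CPM in KO mice, so that both groups were tight and far apart. The calls of Zfp871, Gprin3, Lnpep, Lcor and Lmbrd2 all held when any 1 of the 10 mice was left out.

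**Figure D1:**
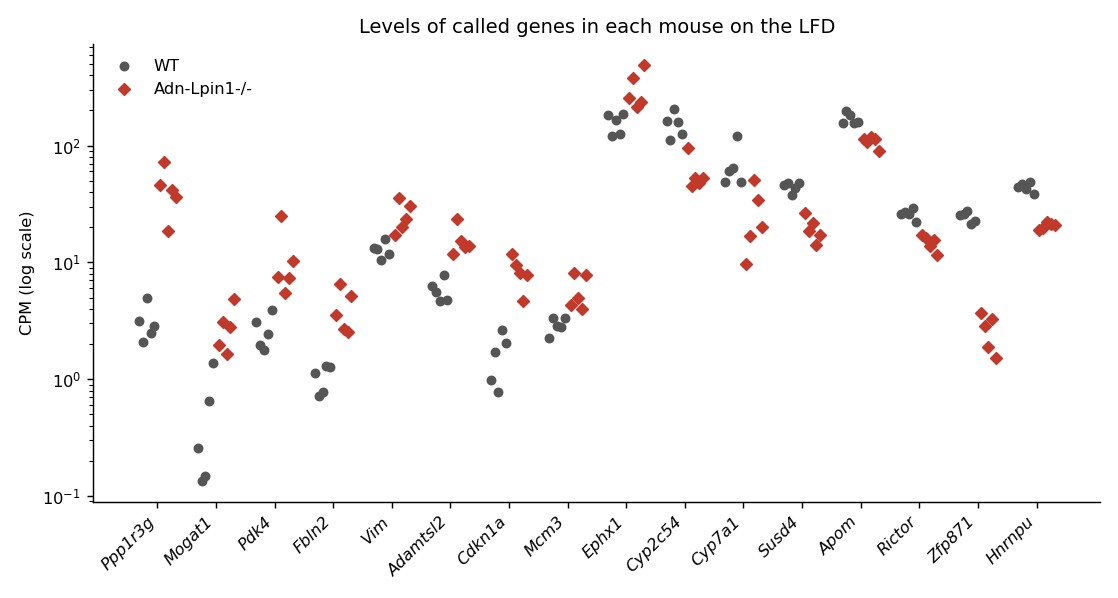
Levels of 16 genes in each LFD mouse, in CPM on a log axis, with WT mice and Adn-Lpin1-/- mice as separate points. Ppp1r3g, Cdkn1a and Fbln2 are higher in all 5 Adn-Lpin1-/- mice than in any WT mouse, and Zfp871, Rictor and Hnrnpu are lower in all 5, whereas the groups of Cyp7a1 overlap.

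The differences had a trend with GC content, which bears on every list that follows. Across the genes tested, the log2 difference correlated with the GC content of the gene model with r = 0.239, a description over genes that share the same 10 libraries. Genes called lower had a median GC content of 43.8% and genes called higher one of 53.9%, against 49.7% over all genes tested. Of the 10% of genes with the lowest GC content, 24.6% were called lower and 1.31% higher, and of the 10% with the highest, 4.08% and 13%. Genes called lower had a median length of 5119 bases and genes called higher one of 3897, against 3561 over all genes tested. With the trend in GC content and length removed, 1764 genes were called (744 higher and 1020 lower), of which 1333 were among the 1877. Where removal of the trend in GC content is named below, the trend in length was removed with it. Whether library preparation or biology set these trends was not tested. Named genes whose calls ended with their removal are given where they are described. Counts of lists moved in both directions with it. Sinusoidal endothelial genes called higher went from 9 to 5 and antioxidant genes from 6 to 4. Genes called lower went from 10 to 8 in the pericentral and in the bile acid list, and from 3 to 1 among major urinary proteins. They went from 4 to 7 among general hepatocyte genes and from 6 to 11 in amino acid catabolism.

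**Figure D2:**
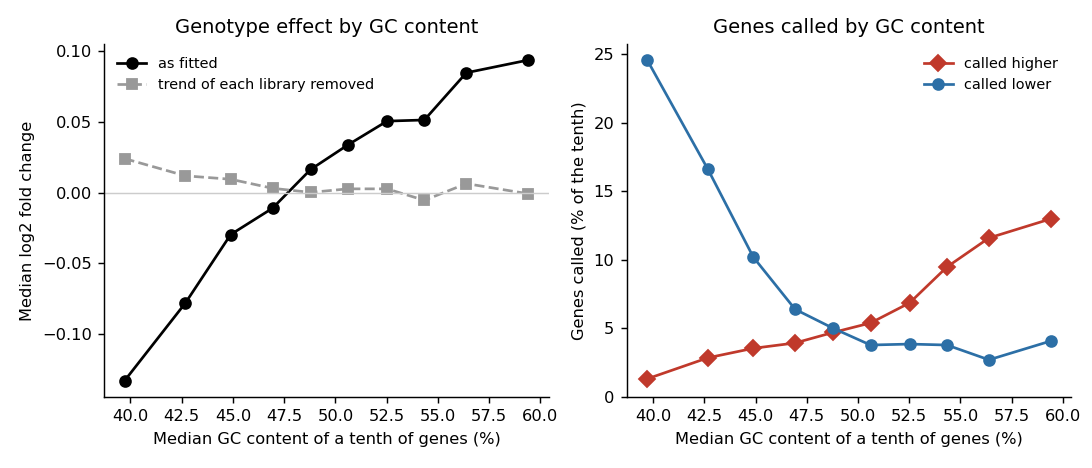
Median log2 difference (Adn-Lpin1-/- minus WT) of the tested genes in 10 bins of equal size by GC content, with the share of genes called higher and lower in each bin. The median goes from -0.133 in the bin with the lowest GC content to 0.0937 in the bin with the highest.

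Among liver cell types, 16 of 23 genes of activated stellate cells and myofibroblasts and 9 of 29 genes of sinusoidal endothelium were called higher in Adn-Lpin1-/- mice, and 10 of 24 pericentral hepatocyte genes were called lower, while edgeR called no gene of the Kupffer cell and lymphocyte lists. In bulk RNA, fewer cells of a type and less RNA of that type per cell cannot be told apart. Of 23 general hepatocyte genes, none rose and 4 fell (17.4%, median log2 difference of -0.27), and the summed level of the list went from 152802 to 159936 CPM in WT mice to 112569 to 146142 CPM in KO mice. The count of 4 depended on single mice, being 2 without Adn-Lpin1-/- mouse 2 or WT mouse 3, 1 without Adn-Lpin1-/- mouse 5 and 7 without WT mouse 5. Of 18 periportal genes, only Pigr (the polymeric immunoglobulin receptor) was called, as lower, when the share of genes called lower was 8.11% over all genes.

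**Figure D3:**
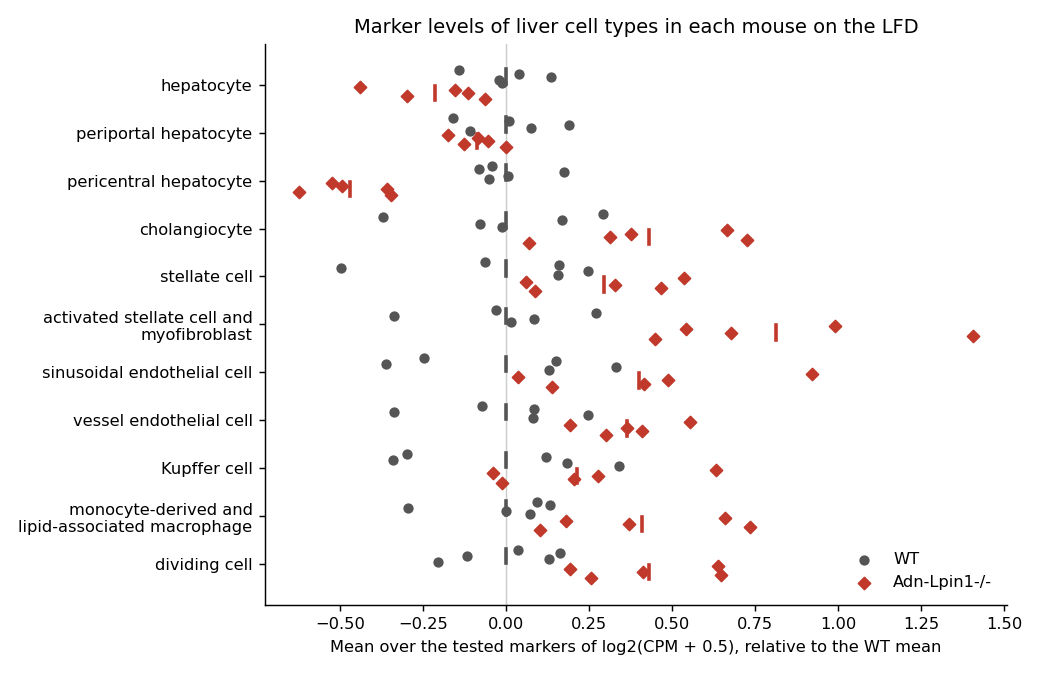
Mean log2 level of each cell type's tested genes in each LFD mouse, relative to the WT mean of the list, with WT and Adn-Lpin1-/- mice as separate points. The activated stellate cell and dividing cell lists are higher in all 5 Adn-Lpin1-/- mice than in any WT mouse, the pericentral list is lower in all 5, and the Kupffer cell list overlaps.

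Most of the called genes of hepatocyte zones were pericentral. Of 24 genes of pericentral hepatocytes, 10 were called lower (41.7%) and none higher, with a median log2 difference of -0.33, and this count stayed within 1.5 times when any mouse was left out. Cyp2c54, a cytochrome P450 that oxidizes fatty acids and drugs, was at 161.1, 110.6, 205.3, 160.5 and 126.6 CPM in WT mice and at 96.2, 45.2, 53, 47.4 and 52.8 CPM in Adn-Lpin1-/- mice. All KO mice lay under the lowest WT mouse, and the log2 difference was -1.38 ± 0.23 (adjusted p = 0.000601). The glutamate transporter Slc1a2 and the vitamin C synthesis enzyme Gulo also fell with no overlap, by 0.61 ± 0.12 and 0.50 ± 0.09 on the log2 scale. So did the WNT inhibitor Notum, which was named after its values were seen (log2 difference of -0.63 ± 0.13). Glutamine synthetase (Glul), the classical marker of the cells around the central vein, had a log2 difference of -0.01, Lgr5 one of -0.46 and Cyp2e1 one of -0.34, and none of the 3 was called. The mean over the list ranged from -0.081 to 0.173 in WT mice, relative to their mean on the log2 scale, and from -0.624 to -0.346 in KO mice.

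The list of activated stellate cells and myofibroblasts had the largest share of increases among the cell types. Of its 23 genes that could be tested, 16 rose (69.6%), 1 fell and the median log2 difference was 0.99. Summed over the list, the level went from 110.2 to 182.9 CPM in WT mice to 190.1 to 334.4 CPM in Adn-Lpin1-/- mice, with no overlap. Without Adn-Lpin1-/- mouse 2, which had the highest mean of the list, 7 genes were called higher, and without WT mouse 3, which had the lowest, 8 were. Vimentin (Vim), the intermediate filament protein of mesenchymal cells, was at 13.4, 13.1, 10.4, 16 and 11.8 CPM in WT mice and at 17.3, 35.3, 19.9, 23.6 and 30.3 CPM in KO mice. Its groups did not overlap, and the log2 difference was 0.97 ± 0.23 (adjusted p = 0.00828). Acta2, the smooth muscle actin that marks myofibroblasts, rose by 1.48 ± 0.39 with overlapping groups, and its call was lost without Adn-Lpin1-/- mouse 2. The matrix cross-linking enzyme Loxl2 rose by 1.33 ± 0.31. Integrin alpha V (Itgav), which releases TGF beta from its latent complex, was the 1 gene of the list that fell, with a log2 difference of -0.44 ± 0.12, and its call was lost without WT mouse 2.

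The general list of stellate cells, which holds genes of both their states, gave fewer calls. Of its 26 tested genes 4 rose (15.4%) and none fell, and 1 was called higher without Adn-Lpin1-/- mouse 2 or WT mouse 3 and 2 without Adn-Lpin1-/- mouse 5. The receptor for platelet-derived growth factor Pdgfrb, which drives stellate cell division, was at 6.33, 7.69, 3.87, 7.97 and 8.21 CPM in WT mice and at 9.91, 17.6, 12.4, 10.3 and 15.6 CPM in KO mice. These groups did not overlap, and the log2 difference was 0.95 ± 0.21 (adjusted p = 0.00578). Of 10 tested genes of mesothelium and portal fibroblasts, the microfibril glycoprotein Mfap4 and dermatopontin (Dpt) rose, by 1.62 ± 0.38 and 1.71 ± 0.42. Without Adn-Lpin1-/- mouse 1, 5 of the 10 were called.

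Every tested gene of sinusoidal endothelial cells had a log2 difference above 0, 29 of 29, and 9 of them rose (31%, median 0.41). The scavenger receptor stabilin 1 (Stab1), with which these cells clear waste from the blood, was at 41.2, 40.5, 35.6, 46.8 and 28.9 CPM in WT mice and at 56.2, 59.7, 57.5, 55.9 and 61.7 CPM in KO mice. The KO mice were within a narrow range above all WT mice (log2 difference of 0.59 ± 0.10, adjusted p = 0.000805). Pecam1, the junction protein CD31, and Eng, a co-receptor for TGF beta and BMP, rose by 0.84 ± 0.21 and 0.65 ± 0.15, each with overlap. The list's mean overlapped between genotypes, from -0.363 to 0.329 in WT mice and from 0.0349 to 0.919 in KO mice. Only 3 genes were called higher without Adn-Lpin1-/- mouse 5 or without WT mouse 3, the mice with the highest and the lowest mean. Of 13 tested genes of larger vessels 2 rose, among them von Willebrand factor (Vwf), a clotting glycoprotein that sinusoidal cells make little of at rest. Vwf was at 5.89, 4.61, 3.72, 7.04 and 3.92 CPM in WT mice and at 13.5, 13.8, 8.83, 9.31 and 11.4 CPM in KO mice. The groups were apart, with a log2 difference of 1.17 ± 0.22 (adjusted p = 0.00187).

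Calls among macrophage and lymphocyte genes differed by list. Of 24 Kupffer cell genes 0 were called by edgeR and by limma-voom and 1 was called higher by DESeq2, with 3 higher and 1 lower at an unadjusted p under 0.05 and a median log2 difference of 0.21. Of 20 tested genes of monocyte-derived and lipid-associated macrophages 3 rose (15%), 16 had a log2 difference above 0 and the median was 0.57. DESeq2 called 7 of the 20 higher and limma-voom 3, and at an unadjusted p under 0.05, 11 were higher and 0 lower. The count of edgeR was 6 without Adn-Lpin1-/- mouse 1 and 1 without Adn-Lpin1-/- mouse 2, Adn-Lpin1-/- mouse 5, WT mouse 1 or WT mouse 3. The tetraspanin Cd63 of this list kept its call whichever mouse was left out. Of the 10 antigen presentation genes, 5 T and NK cell genes, 6 B and plasma cell genes and 3 neutrophil genes that could be tested, 0 were called by edgeR, DESeq2 or limma-voom. At an unadjusted p under 0.05, 1 T and NK cell gene was lower and 1 neutrophil gene higher. Most genes of the lymphocyte and neutrophil lists were under the filter on low counts. Of 14 tested cholangiocyte genes edgeR called only Wfdc2, a secreted protease inhibitor of bile duct epithelium, as higher. DESeq2 and limma-voom each called 2 higher. The log2 difference was above 0 for 11 of the 14, with a median of 0.56, and at an unadjusted p under 0.05, 7 were higher and 0 lower. WT mouse 3 had the lowest mean of the stellate cell, sinusoidal endothelial and Kupffer cell lists, and its part in their differences is given by the counts without it.

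The genes of dividing cells that rose were mostly subunits of the MCM helicase, which opens DNA at replication origins. Of 23 tested genes 6 rose (26.1%) and none fell, and 5 of the 6 were the subunits Mcm2, Mcm3, Mcm4, Mcm5 and Mcm6. Mcm3 was at 2.24, 3.33, 2.83, 2.81 and 3.33 CPM in WT mice and at 4.3, 8.16, 4.94, 4.02 and 7.8 CPM in KO mice. All KO mice were above all WT mice, and the log2 difference was 1.01 ± 0.19 (adjusted p = 0.0021). Mcm5 rose 2.64-fold (standard error 0.29 on the log2 scale) with overlap. Mcm7, the remaining subunit, had a log2 difference of 0.08, Pcna one of 0.07 and Mki67, the protein Ki-67, one of 0.69, and none of these was called. Only 2 genes of the list were called without Adn-Lpin1-/- mouse 2, Adn-Lpin1-/- mouse 5 or WT mouse 3, whereas Mcm3 and Mcm5 kept their calls. Mcm4 and Mcm6 lost theirs also without WT mouse 1 or 2, Mcm4 without Adn-Lpin1-/- mouse 3 or WT mouse 4, and Mcm6 without Adn-Lpin1-/- mouse 1 or WT mouse 5.

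E2F factors bind near the start of many replication genes, and the promoters of the MCM genes that rose are shown here for their matches to the E2F-type motif TTTNNCGC. The RefSeq windows reach from 250 bases before to 50 bases after the start in GRCm38.p6, both strands were searched, and the match is in capitals in the strand of the gene.
Mcm3, chr1:20820275-20820304, minus strand: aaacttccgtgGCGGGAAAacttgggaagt
Mcm5, chr8:75109345-75109374, plus strand: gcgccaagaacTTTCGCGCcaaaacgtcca
Mcm6, chr1:128359797-128359826, minus strand: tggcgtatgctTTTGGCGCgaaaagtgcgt
Mcm6, chr1:128359734-128359763, minus strand: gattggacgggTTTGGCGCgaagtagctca
In Mcm3 the match shown is on the opposite strand and lies 20 bases after the start. Those of Mcm5 and of the first Mcm6 line lie before the start, and each overlaps a second match on the opposite strand. Of the genes of the dividing cell list that were called higher and had a promoter entry, 3 of 4 held a match, Mcm2 being the one that did not. Over the tested genes of the list it was 6 of 18 (33.3%), and over all genes with a promoter entry 1602 of 27025 (5.93%). A match describes the letters of the window and is not evidence of binding.

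**Figure D4:**
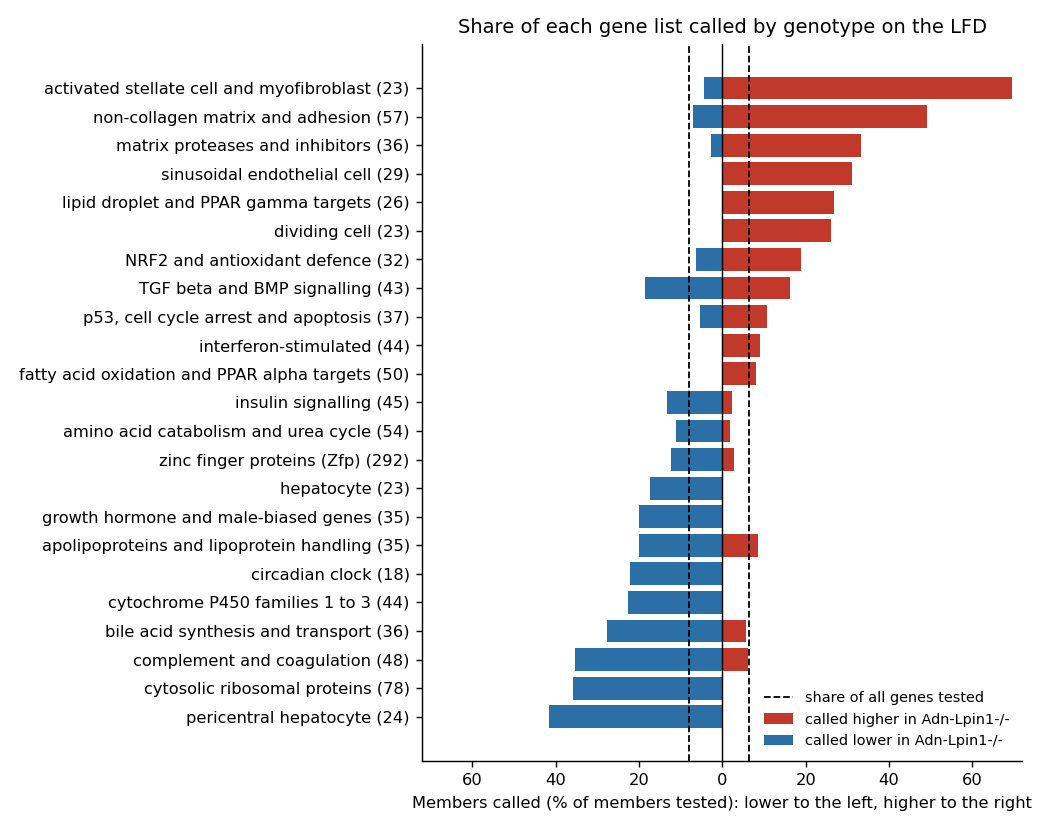
Share of each list's tested genes that were called higher or lower in Adn-Lpin1-/- mice, in percent, with vertical lines at the shares over all genes tested (6.27% higher and 8.11% lower). Myofibroblast, non-collagen matrix and protease genes lie to the side of increases, and pericentral, ribosomal protein and complement genes to the side of decreases.

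The increases in matrix genes were not limited to collagens. The list of non-collagen matrix and adhesion shares genes with that of activated stellate cells, Fbln2 among them, so their counts are not independent. Of 57 tested genes of non-collagen matrix and adhesion 28 rose (49.1%) and 4 fell, with 51 of 57 above 0 and a median log2 difference of 0.62. The count of increases was 14 without Adn-Lpin1-/- mouse 2, 17 without Adn-Lpin1-/- mouse 5 and 14 without WT mouse 3. Fibulin 2 (Fbln2, chromosome 6, 91212455 to 91272540, GRCm38), which links elastic fibers to basement membranes, was at 1.13, 0.72, 0.774, 1.3 and 1.28 CPM in WT mice and at 3.52, 6.58, 2.68, 2.52 and 5.18 CPM in KO mice. All KO mice lay above all WT mice, with a log2 difference of 1.97 ± 0.37 (adjusted p = 0.00157). Other elastic fiber genes that rose were Efemp2 (fibulin 4) by 0.97 ± 0.18, Emilin2 by 1.07 ± 0.22 and, named after its values were seen, elastin (Eln) by 1.45 ± 0.35. The proteoglycan biglycan (Bgn) rose by 0.71 ± 0.16, going from 57.1 to 101.5 CPM in WT mice to 102.1 to 172.6 CPM in KO mice. The laminins were split, since Lama5 rose by 0.72 ± 0.16, also named after its values were seen, whereas Lama3 had a log2 difference of -0.76 ± 0.19. The collagen receptor integrin alpha 1 (Itga1) and syndecan 2 (Sdc2), a heparan sulfate proteoglycan of the hepatocyte surface, fell by 0.45 ± 0.10 and 0.44 ± 0.08.

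Of 36 tested enzymes and inhibitors that shape the matrix 12 rose (33.3%) and 1 fell, and without Adn-Lpin1-/- mouse 2 or WT mouse 3 the increases were 7. Adamtsl2, a secreted glycoprotein that binds latent TGF beta binding proteins, was at 6.23, 5.6, 4.71, 7.74 and 4.78 CPM in WT mice and at 11.7, 23.3, 15.1, 13.5 and 13.9 CPM in KO mice. The groups did not overlap, and the log2 difference was 1.42 ± 0.24 (adjusted p = 0.000843). The procollagen N-proteinase Adamts2 rose by 1.43 ± 0.31 without overlap. The metalloproteinase inhibitor Timp3 rose by 1.24 ± 0.26 with overlap.

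Genes of TGF beta and BMP signalling moved in both directions. Of 43 tested genes 7 rose (16.3%) and 8 fell (18.6%), and both counts stayed within 1.5 times without any 1 mouse. The latent TGF beta binding proteins, which store the ligand in the matrix, rose, with log2 differences of 1.10 ± 0.24 for Ltbp3 and 0.75 ± 0.16 for Ltbp4. Receptors were among the decreases. Tgfbr1, the type I receptor of TGF beta, was at 19.5, 22.2, 23.8, 21.7 and 21.3 CPM in WT mice and at 16.8, 15.2, 15.2, 16.5 and 14.9 CPM in KO mice. All KO mice were lower than all WT mice (log2 difference of -0.46 ± 0.07, adjusted p = 0.000191). The activin receptor Acvr2a fell likewise, by 0.52 ± 0.09. The call of the BMP receptor Bmpr2, with a log2 difference of -0.42 ± 0.09, ended when the trend in GC content was removed (adjusted p = 0.114). Inhba, which encodes the subunit of activin A, fell from 5.42 to 9.48 CPM in WT mice to 2.65 to 3.54 CPM in KO mice, a log2 difference of -1.30 ± 0.29.

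**Figure D5:**
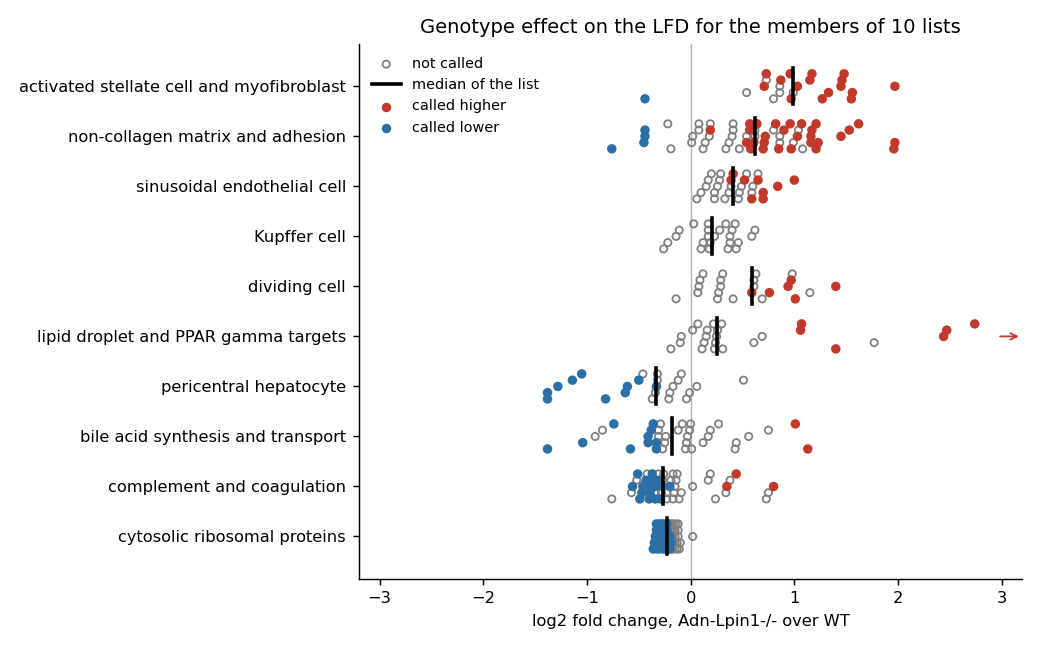
Log2 difference (Adn-Lpin1-/- minus WT) of each tested gene in 10 lists, with called genes marked by color and the median of the list as a line. Genes of activated stellate cells and non-collagen matrix lie mostly above 0 and ribosomal protein genes below 0, and Cidea, drawn as an arrow, lies beyond the axis.

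Genes of the lipid droplet and targets of PPAR gamma rose in 7 of 26 cases (26.9%), and none fell. Besides the droplet proteins Cidea, Cidec and Plin4, they included Mogat1, a monoacylglycerol acyltransferase that PPAR gamma induces in fatty liver. Mogat1 was at 0.257, 0.135, 0.149, 0.651 and 1.38 CPM in WT mice and at 1.97, 3.09, 1.66, 2.79 and 4.87 CPM in KO mice. Its groups did not overlap, which the rule for the largest increases required, and WT mouse 5 was close to the lowest KO mouse. The log2 difference was 2.47 ± 0.59 (adjusted p = 0.00893). The fatty acid binding protein Fabp4 rose by 1.07 ± 0.25 without overlap. Pparg itself rose 2.64-fold (standard error 0.41 on the log2 scale) with overlap, and its call was lost without Adn-Lpin1-/- mouse 2 or 5 or without WT mouse 2, 3 or 4. The fatty acid transporter Cd36 had a log2 difference of 1.77 and the main hepatocyte droplet protein Plin2 one of 0.30, and neither was called. Cidea was near 0 in WT mice and ranged from 0.114 to 24.4 CPM in KO mice, so its fold has no stable size.

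Enzymes of triglyceride synthesis gave few calls. Of 33 tested genes of triglyceride and phospholipid synthesis 3 rose and 2 fell (9.09% and 6.06%), which is near the share over all genes. Dgat2, the acyltransferase of the last step of triglyceride synthesis in the endoplasmic reticulum, was at 749.2, 683.4, 833.4, 849.9 and 811.8 CPM in WT mice and at 627.1, 591.4, 637.7, 645.3 and 570.1 CPM in KO mice. It fell without overlap by 0.35 ± 0.07 on the log2 scale (adjusted p = 0.00242), while Dgat1 had a difference of 0.09. Choline kinase beta (Chkb), of phosphatidylcholine synthesis, rose by 0.38 ± 0.06. Of 30 genes of elongation, desaturation and lipogenic regulation 2 rose and 1 fell, and Srebf1, which encodes the regulator SREBP-1, had a log2 difference of 0.22 with no call.

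Fatty acid oxidation genes as a list gave 4 increases among 50 (8%) and no decrease, with 0 called without WT mouse 3, 1 without Adn-Lpin1-/- mouse 2, 2 without Adn-Lpin1-/- mouse 5 or WT mouse 2 or 4, and 7 without Adn-Lpin1-/- mouse 1 or WT mouse 5. Pdk4, the kinase that shuts off pyruvate dehydrogenase in fasting, was at 3.06, 1.96, 1.79, 2.45 and 3.92 CPM in WT mice and at 7.44, 25, 5.45, 7.33 and 10.3 CPM in KO mice. The groups did not overlap, but Adn-Lpin1-/- mouse 2 stood far above the rest. The log2 difference was 2.07 ± 0.58 (adjusted p = 0.0211), and the call was lost without Adn-Lpin1-/- mouse 2, WT mouse 2 or WT mouse 3. The rate-limiting carnitine transferase Cpt1a, with a log2 difference of 0.18, was not called.

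Among lipoprotein genes, Apoa4, an apolipoprotein that hepatocytes induce when they hold much triglyceride, rose from 237.4, 195.9, 182.1, 325.9 and 970.0 CPM in WT mice to 944.2, 2654, 1476, 1815 and 1777 CPM in KO mice. WT mouse 5 lay just above the lowest KO mouse, and the log2 difference was 2.18 ± 0.51 (adjusted p = 0.00765). Apolipoprotein M (Apom), which carries sphingosine 1-phosphate on HDL, went the other way, from 156.9, 199.0, 183.7, 156.0 and 157.8 CPM to 112.8, 106.7, 118.5, 113.8 and 90.6 CPM. Its groups were apart (log2 difference of -0.65 ± 0.11, adjusted p = 0.000644). Apob, the structural protein of VLDL, and Abca1, which loads cholesterol onto nascent HDL, fell by 0.49 ± 0.10 and 0.44 ± 0.08, both without overlap. Over 35 genes of the list 3 rose (8.57%) and 7 fell (20%), and the decreases were 3 without Adn-Lpin1-/- mouse 5 and 4 without WT mouse 3.

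Ppp1r3g was 1 of 3 genes of glucose and glycogen metabolism that rose, of 43 tested (6.98%), and 1 fell. The others were the pentose phosphate enzymes Pgd and Taldo1, with log2 differences of 0.67 ± 0.20 and 0.26 ± 0.08, and the decrease was that of the glucose transporter Slc2a2 (-0.29 ± 0.09). All 3 overlapped between genotypes and lost their calls without single mice, Pgd without Adn-Lpin1-/- mouse 2 or 5 or WT mouse 1, 3 or 4, Taldo1 without these or Adn-Lpin1-/- mouse 4, and Slc2a2 without Adn-Lpin1-/- mouse 3 or WT mouse 4 or 5. With the trend in GC content removed, the calls of Taldo1 and Slc2a2 ended too (adjusted p of 0.0971 and 0.149). The other glycogen-targeting subunits Ppp1r3b and Ppp1r3c had log2 differences of -0.23 and -0.61 without a call, and so did the gluconeogenic enzymes Pck1 (0.41) and glucose 6-phosphatase (G6pc, 0.83). The groups of G6pc did not overlap, at 170.7 to 493.1 CPM in WT mice and 523.9 to 836.2 CPM in KO mice. Of 45 tested genes of insulin signalling 1 rose (2.22%) and 6 fell (13.3%). Rictor, the defining subunit of mTOR complex 2, which phosphorylates AKT, was at 25.9, 27, 25.8, 29.3 and 22.3 CPM in WT mice and at 17.2, 16.2, 13.7, 15.6 and 11.5 CPM in KO mice. The groups were well apart, with a log2 difference of -0.81 ± 0.11 (adjusted p = 0.000133). Inppl1, which encodes the lipid phosphatase SHIP2 that limits AKT signalling, rose by 0.28 ± 0.06 without overlap. The call of Rps6kb1, with a log2 difference of -0.21, ended when the trend in GC content was removed (adjusted p = 0.783) and when WT mouse 3 was left out.

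Genes of the growth hormone axis and genes with male-biased expression, taken as 1 list, fell in 7 of 35 cases (20%), and none rose. Without WT mouse 5, 13 of them were called lower. The growth hormone receptor (Ghr) was at 592.3, 593.0, 641.0, 556.2 and 572.9 CPM in WT mice and at 445.4, 427.5, 420.2, 426.2 and 472.1 CPM in KO mice. The groups were tight and apart (log2 difference of -0.43 ± 0.07, adjusted p = 0.000436). Susd4, a complement regulator with male-biased expression in liver, fell from 46, 47.7, 37.6, 43.3 and 47.5 CPM to 26.7, 18.4, 21.8, 14.2 and 17.3 CPM, again without overlap (log2 difference of -1.17 ± 0.16, adjusted p = 0.000112). Igf1, the main hepatic product of growth hormone, had a log2 difference of -0.36 and was not called. Igfals, which binds IGF1 in the circulation, and Hsd3b5, a male-specific steroid dehydrogenase, fell by 0.68 ± 0.14 and 1.32 ± 0.35 and were named after their values were seen. Of 16 tested female-biased genes none rose and 1 fell. Major urinary protein genes, which male mice express strongly, fell in 3 of 20 cases, 7 without WT mouse 5 and 0 without WT mouse 2, and reads of these near-identical copies may be split between them.

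Genes of bile acid synthesis and transport fell in 10 of 36 tested cases (27.8%) and rose in 2. Slc27a5, which activates bile acids for conjugation, was at 905.7, 856.4, 1037, 853.9 and 914.0 CPM in WT mice and at 735.5, 685.6, 635.6, 703.7 and 676.7 CPM in KO mice, with no overlap (log2 difference of -0.41 ± 0.06, adjusted p = 0.000352). Akr1d1, the reductase of the steroid ring, and Amacr, a racemase of the side chain, fell by 0.74 ± 0.13 and 0.33 ± 0.07, also without overlap. Akr1d1 was between 102.6 and 142.3 CPM in WT mice and between 71.8 and 82.8 CPM in KO mice. Cyp7a1, the rate-limiting enzyme of the classical pathway, was at 48.9, 61.1, 64.1, 119.7 and 49.2 CPM in WT mice and at 9.6, 16.7, 50.7, 34.5 and 20.1 CPM in KO mice. Adn-Lpin1-/- mouse 3 lay within the WT range, and the log2 difference of -1.38 ± 0.43 (adjusted p = 0.0374) lost its call without any 1 of 6 mice, namely Adn-Lpin1-/- mice 1, 2 and 5 and WT mice 2, 3 and 4, and also with the trend in GC content removed (adjusted p = 0.0601). Cyp7a1 was named after its values were seen. Ephx1, a microsomal epoxide hydrolase listed here for its role in bile acid uptake, rose from 181.9, 120.0, 164.5, 126.8 and 185.6 CPM to 256.0, 375.2, 214.2, 235.9 and 491.3 CPM. All KO mice were above all WT mice (log2 difference of 1.01 ± 0.19, adjusted p = 0.00163).

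Cytochrome P450 genes of families 1 to 3 fell in 10 of 44 tested cases (22.7%), and none rose. Of the 10, 7 belonged to the Cyp2c family, whose near-identical members can share reads. Cyp2a5, a coumarin hydroxylase, fell from 473.4 to 730.9 CPM in WT mice to 201.0 to 433.0 CPM in KO mice, a log2 difference of -0.95 ± 0.18. Cyp2b10, which the nuclear receptor CAR induces, had a log2 difference of 1.71 and was not called. Conjugating enzymes of phase II moved in both directions, 3 of 41 rising (7.32%) and 5 falling (12.2%, 3 without WT mouse 3), among them the glucuronosyltransferases Ugt2a3 and Ugt2b1 (-0.56 ± 0.11 and -0.73 ± 0.16) and the glutathione transferase Gstm4 (0.60 ± 0.14). Of 32 tested genes of antioxidant defence 6 rose (18.8%) and 2 fell, with 2 or 3 called higher without Adn-Lpin1-/- mouse 2 or 5 or without WT mouse 2, 3 or 4. The extracellular glutathione peroxidase Gpx3 rose by 1.19 ± 0.26 and aldehyde oxidase Aox1 by 0.67 ± 0.16, neither overlapping.

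Of 48 tested genes of complement and coagulation, whose products circulate in plasma, 17 fell (35.4%) and 3 rose, with a median log2 difference of -0.27, and 11 were called lower without Adn-Lpin1-/- mouse 5 or WT mouse 3. Prothrombin (F2) was at 2190, 2225, 2292, 2148 and 2006 CPM in WT mice and at 1815, 1728, 1782, 1823 and 1615 CPM in KO mice. The groups did not overlap, and the log2 difference was small but well measured at -0.31 ± 0.06 (adjusted p = 0.00255). Plasminogen (Plg) and heparin cofactor II (Serpind1) fell in the same way, by 0.43 ± 0.09 and 0.39 ± 0.07. The kininogens, precursors of bradykinin, were an exception, since Kng1 and Kng2 rose by 0.44 ± 0.11 and 0.35 ± 0.09 without overlap, and reads of these near-identical copies may be split between them. Of 33 hepatokine genes 1 rose and 5 fell, including fetuin B (Fetub), with a log2 difference of -0.47 ± 0.12, and the 5 became 2 without Adn-Lpin1-/- mouse 2 and 3 without Adn-Lpin1-/- mouse 5 or WT mouse 3. Of 28 tested acute phase genes none rose and 1 fell (3.57%).

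Of 45 tested transcription factors of the hepatocyte 5 fell (11.1%) and 2 rose. The glucocorticoid receptor (Nr3c1) was at 72.2, 72.6, 78, 62.6 and 74.2 CPM in WT mice and at 52.8, 55.8, 47.1, 52.6 and 52.9 CPM in KO mice, without overlap (log2 difference of -0.46 ± 0.07, adjusted p = 0.00048). Onecut2 and Cebpa, both factors of hepatocyte identity, fell by 0.67 ± 0.13 and 0.31 ± 0.08, while Hnf4a had a log2 difference of -0.03. Of 18 tested clock genes 4 fell (22.2%) and none rose, a count that stayed within 1.5 times without any 1 mouse. They included Clock, Nr1d2 and Dbp, with log2 differences of -0.55 ± 0.12, -0.43 ± 0.09 and -0.37 ± 0.08 and no overlap, whereas Arntl (0.78) and Per2 (-0.12) were not called.

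Of 37 tested genes of p53, cell cycle arrest and apoptosis 4 rose (10.8%) and 2 fell. With Cdkn1a rose the pro-apoptotic Bax, by 0.33 ± 0.07, and the antiproliferative Btg2, by 0.93 ± 0.20, none of them overlapping between genotypes. Btg2 went from 6.29 to 10.4 CPM in WT mice to 14.8 to 19.7 CPM in KO mice. Inflammatory genes were called higher at near the share over all genes tested, which was 6.27%. Of 44 interferon-stimulated genes 4 rose (9.09%), and of 33 tested genes of chemokines and inflammatory mediators 2 rose (6.06%). The interferon count was 0 without Adn-Lpin1-/- mouse 2 or WT mouse 3, 1 without Adn-Lpin1-/- mouse 3 and 2 without Adn-Lpin1-/- mouse 1 or 5 or WT mouse 1, 2 or 5. Of 54 tested genes of amino acid catabolism and the urea cycle 6 fell (11.1%) and 1 rose, with 3 called lower without Adn-Lpin1-/- mouse 2, WT mouse 2 or WT mouse 4. The urea cycle enzyme Otc and the methyltransferase Gnmt fell by 0.39 ± 0.09 and 0.44 ± 0.10.

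Of 78 tested ribosomal protein genes 77 had a log2 difference below 0. Of the 78, 28 were called lower (35.9%) and none higher, and the median was -0.22. Rps2 was at 522.2, 537.2, 521.4, 530.6 and 460.1 CPM in WT mice and at 440.9, 375.8, 423.9, 382.8 and 427.1 CPM in KO mice, so the groups were apart by little (log2 difference of -0.33 ± 0.07, adjusted p = 0.00424). Rps20 and Rplp0 also fell without overlap, by 0.36 ± 0.08 and 0.26 ± 0.06. Calls in this list depended on single mice, with 50 called without WT mouse 5, which was the lowest WT mouse in each of Rps2, Rps20 and Rplp0. Fewer were called without other mice, namely 9 without Adn-Lpin1-/- mouse 2, 18 without Adn-Lpin1-/- mouse 4, 15 without Adn-Lpin1-/- mouse 5, and 11, 15, 13 and 11 without WT mice 1, 2, 3 and 4. With the trend in GC content removed, 40 were called lower.

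Transcripts of ribosomal proteins begin with a run of pyrimidines that couples their translation to growth signals. For 4 ribosomal genes called lower, the RefSeq windows of GRCm38.p6 with the run at the annotated start are shown, from 15 bases before to 15 bases after it, with the pyrimidine run in capitals.
Fau, chr19:6057932-6057961, plus strand: tgcgcgcccccacttCTTCCTCTTTCTTga
Rps18, chr17:33955651-33955680, minus strand: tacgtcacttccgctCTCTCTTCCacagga
Rpl15, chr14:18270972-18271001, minus strand: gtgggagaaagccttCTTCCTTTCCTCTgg
Rps6, chr4:86857353-86857382, minus strand: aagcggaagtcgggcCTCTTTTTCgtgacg
The log2 differences of Fau, Rps18, Rpl15 and Rps6 were -0.27, -0.32, -0.20 and -0.24. Fau kept its call without any 1 mouse. The others lost theirs without Adn-Lpin1-/- mouse 2, WT mouse 1 or WT mouse 4, Rps18 also without Adn-Lpin1-/- mouse 5 or WT mouse 3, Rpl15 without Adn-Lpin1-/- mouse 4 or 5 or WT mouse 2, and Rps6 without Adn-Lpin1-/- mouse 1 or 4 or WT mouse 2 or 3. The call of Rpl15 also ended with the trend in GC content removed (adjusted p = 0.208). A C followed by 4 pyrimidines at the annotated start was found in 14 of the 57 tested ribosomal genes with a promoter entry (24.6%). It was found in 5 of the 19 that were called lower (26.3%) and in 813 of all 27025 genes with a promoter entry (3.01%). The counts measure RNA levels and not translation.

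Other families of RNA and protein handling were nearer the shares over all genes. Of 292 tested zinc finger (Zfp) genes 36 fell (12.3%) and 8 rose (2.74%), and 20 were called lower with the trend in GC content removed. Of 39 splicing factors 6 fell (15.4%), and 2 did with that trend removed. Among those called both ways was Hnrnpu, which binds nascent RNA and chromatin and was at 43.9, 46.6, 42.3, 48.3 and 38.5 CPM in WT mice and at 18.8, 19.6, 22.1, 21.5 and 20.8 CPM in KO mice. The groups were far apart (log2 difference of -1.10 ± 0.13, adjusted p = 1.32e-05). Of 37 proteasome genes 3 rose (8.11%), among them Psmc4 and Psmd8 by 0.24 ± 0.06 each. Of 88 tested nuclear genes of oxidative phosphorylation 1 was called, as higher, and of 13 mitochondrial ones edgeR called 0, with 2 lower at an unadjusted p under 0.05 and 1 called lower by DESeq2 and by limma-voom. With the trend in GC content removed, 8 nuclear genes were called lower and 4 mitochondrial genes higher.

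Whether the genotype effect differed between diets was tested as an interaction. No gene was called by edgeR (0%), with a smallest adjusted p of 0.287, while 938 genes (7.19%) had an unadjusted p under 0.05. DESeq2 called 30 genes and limma-voom 0. The LFD differences described above were therefore not shown to be particular to the LFD. Among the lists, antigen presentation genes held the most such genes by share, 7 of 10, with a median genotype difference (log2) of 0.21 in LFD mice and 1.22 in HFD mice. Of 29 tested cholesterol synthesis genes, 16 had an unadjusted interaction p under 0.05. Their median genotype difference was 0.12 for LFD mice and -0.53 for HFD mice. For Ppp1r3g and Zfp871 the adjusted interaction p was 0.308 and 0.453.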

How the data were processed

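The authors aligned reads of 24 mouse liver libraries to GRCm38 (Ensembl release 76) with STAR 2.5.1a and counted uniquely aligned, unambiguous reads per gene with featureCounts 1.4.6-p5. The authors deposited, for 41388 genes per library, raw counts with the CPM and RPKM made from them. Neither the deposited CPM nor the deposited RPKM was used here. Symbols, gene types and GRCm38 coordinates came from GENCODE and were found for 97.3% of the genes. Counts were not stated to use strand, so overlapping and antisense genes cannot be told apart. Whether the preparation selected poly(A) RNA was not given in the sources used here.

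Libraries were grouped by their titles. No pair of libraries held identical counts. After removal of rRNA genes, 13052 genes were kept, each above 1 CPM in 4 or more libraries out of the 20 of single mice. Counts were scaled by TMM and fitted with 4 group means in edgeR 4.0.16 (glmQLFit and glmQLFTest, R 4.3.3), and p-values were adjusted over all tested genes by the Benjamini-Hochberg method, with calls at 0.05 or less. The procedure was tested on simulated counts. Printed CPM use TMM-scaled library sizes. Errors of log2 differences are approximate standard errors, namely the difference divided by the square root of the F statistic of its test. They compare n = 5 mice per group but use the spread estimated over all 20 libraries of single mice. Depth limits precision through counting error, which is largest for genes near 1 CPM. WT mice were littermates and mice were kept in groups, but no source says which of them shared a litter or cage. The p-values therefore treat the mice as independent and weigh each difference against the estimated spread between mice.

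The comparison and its 59 gene lists were chosen with earlier results of these data known, and the list for mesothelium followed a pattern already seen. Genes named are the 12 largest increases and 12 largest decreases without overlap at a mean of at least 1 CPM, up to 3 called members of each list in each direction, the 2 highest members of each cell type list, and the lipins. Genes named as not called serve as textbook reference points and, like other genes outside this rule, were chosen after their values were seen. Alternatives were DESeq2 1.42.0, voom with quality weights in limma 3.58.1, DESeq2 size factors, other filters, only LFD mice, thinned counts, removal of the trend in GC content and length, a replicate block, and fits without any 1 mouse. Promoter sequences are RefSeq's for GRCm38.p6. Tables were handled in Python 3.11.15 with numpy 2.4.6 and pandas 2.3.3, and figures drawn with matplotlib 3.10.9.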

Additional observations from a re-analysis of the deposited data

Results flagged for a closer look

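In 26 of the 310 groups of 5 mice looked at (155 genes in 2 genotypes), 1 mouse lay farther from the other 4 than Dixon's 95% critical value allows, where chance alone gives about 1 group in 20. WT mouse 5 accounted for 11 of the 26. It was high in Apoa4 (970.0 CPM, the other WT mice at 182.1 to 325.9), Cd36 (79.9, the others at 7.56 to 10.7), Lgals1 (25.7, the others at 4.66 to 10.7), Slc6a8 (9.27, the others at 5.84 to 6.49), Cfd (2.71, the others at 0.18 to 0.774) and Cidea (0.0986, the others at 0). In these 6 genes its deviation was toward the Adn-Lpin1-/- mice, which for Apoa4 began at 944.2 CPM. Among Adn-Lpin1-/- mice, Cd36, Lgals1, Cfd and Cidea were also highest in mouse 5, whereas Apoa4 and Slc6a8 were highest in mouse 2. WT mouse 5 was low in Gulo (587.5 CPM), Notum (28.2), Rps2 (460.1), Rps6 (151.4) and Ugt2a3 (169.2), all of them genes that were lower in Adn-Lpin1-/- liver. WT mouse 4 was high in Cyp7a1, at 119.7 CPM against 48.9 to 64.1 in the other WT mice, and WT mouse 3 was low in Taldo1, at 94.9 CPM against 111.1 to 117.2.

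Among Adn-Lpin1-/- mice, mouse 2 was high in Pdk4 (25 CPM, the others at 5.45 to 10.3), Itga1 (13.7) and Slc6a8 (12.5) and low in Fau (157.5). Mouse 1 was high in Cyp2c54 (96.2 CPM, the others at 45.2 to 53) and Slc22a3 (13.3) and low in Plin2, at 425.4 CPM where the other 4 had 704.4 to 759.1. Mouse 3 was high in Adrb3 (10.7 CPM, the others at 4.15 to 5.02), Lnpep (1.47) and Lpin3 (9.49), mouse 4 in Ppp1r3b (168.2 CPM, the others at 120.3 to 131.4), and mouse 5 was high in Cfd, at 35.9 CPM where the others had 1.76 to 8.35, and low in Alb, at 55514 CPM against 68627 to 72312. What set these mice apart was not tested.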

How the results depend on the processing

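The count of 1877 genes was 2248 with DESeq2, 2217 with voom, 1875 with DESeq2 size factors, 1796 with filterByExpr, 1386 with no filter, 1571 in LFD mice alone, 1712 with thinned counts, 1764 with the trend in GC content and length removed and 1855 without ribosomal protein and mitochondrial genes. Leaving out 1 mouse gave 1210 to 1931 genes, 440 to 835 of them higher and 770 to 1096 lower. The lowest total came without WT mouse 3, and the increases were 440 without it, 466 without Adn-Lpin1-/- mouse 2 and 525 without Adn-Lpin1-/- mouse 5, against 818. The difference of the genotype effect between diets had 30 calls with DESeq2 and 0 in each of the other fits. Why these counts differed was not tested.

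The deviations of same-numbered mice of the 2 genotypes had correlations of 0.0991, -0.000956, 0.0177, 0.0138 and 0.26, in order of number. Only mice 1 and 5 were closest to their own number, and the largest correlation was that of mouse 5. The numbers were not taken as pairs in the main fit. What the mice numbered 5 had in common was not tested. A replicate block gave 1532 calls, 659 higher and 873 lower, and 1441 with the trend in GC content and length removed as well.

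Of the 155 named genes, 150 stayed on their side of the threshold and kept their direction with DESeq2, 148 with voom, 147 with the trend in GC content and length removed, and 139 to 152 with 1 mouse left out. Log2 differences near 0 changed sign for genes without a call. With the GC and length trend removed Dgat1 was at -0.01, with and without the replicate block, and Mcm7 at -0.00 with both. With 1 mouse left out, Glul ranged from -0.04 to 0.02 (with 0.00 among them), Hnf4a from -0.09 to 0.06 (0.05 without Adn-Lpin1-/- mouse 5) and Ppp1r3b from -0.34 to 0.04. The KO libraries are all deeper than the WT libraries, so depth and genotype cannot be separated beyond the thinned counts, and genes near 1 CPM rest on few reads.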

Other observations

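Solute carriers, the largest family of membrane transporters, gave calls in both directions. Of 218 tested genes 11 rose (5.05%) and 21 fell (9.63%) in Adn-Lpin1-/- liver on the LFD. The creatine transporter Slc6a8 was at 5.84, 6.3, 5.96, 6.49 and 9.27 CPM in WT mice and at 10.8, 12.5, 10.6, 10.2 and 10.3 CPM in Adn-Lpin1-/- mice, so all KO mice were higher (log2 difference of 0.69 ± 0.13, adjusted p = 0.00187 by edgeR). The organic cation transporter Slc22a3 rose by 1.07 ± 0.21 and the purine transporter Slc43a3 by 0.69 ± 0.13, both without overlap. Slc17a3, a urate and phosphate transporter, fell from 58.5 to 64.5 CPM in WT mice to 37 to 47.3 CPM in KO mice (log2 difference of -0.49 ± 0.08).

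Sphingolipid, iron and autophagy genes gave few calls, but some of them were well separated. Of 33 tested ceramide and sphingolipid genes 1 rose and 2 fell. Alkaline ceramidase 2 (Acer2), which cleaves ceramide, was at 6.36, 7.62, 6.61, 7.56 and 9.34 CPM in WT mice and at 11.9, 15.4, 11.4, 12.8 and 17.4 CPM in KO mice, a log2 difference of 0.88 ± 0.16 without overlap. S1pr1, a receptor for sphingosine 1-phosphate, went from 38.3 to 53.3 CPM in WT mice to 18.8 to 36.2 CPM in KO mice, again without overlap (-0.82 ± 0.16). Ireb2, the iron regulatory protein 2, and Ulk2, a kinase that starts autophagy, had log2 differences of -0.54 ± 0.09 and -0.40 ± 0.09. Within signalling by Hippo, Notch and WNT, 4 of 39 tested genes rose and 4 fell, and the Hippo effector Tead1 rose by 0.85 ± 0.19 with overlap. The 4 increases became 1 without Adn-Lpin1-/- mouse 2 or 5 and 2 without WT mouse 1, 2 or 3. Of 44 unfolded protein response genes 1 rose and 2 fell, with Ern1, the sensor IRE1, lower by a log2 difference of -0.54 ± 0.13.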
